A study of Mus musculus with 48 samples.

Results

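Type I interferon-stimulated genes were followed across 24 mouse ER-Hoxb8 clones in the monocyte and the progenitor state. The 52 genes were taken by name from the 34617 genes of a deposited expression table, and all 52 were present. They comprise transcription factors of the interferon response (Irf7, Irf9, Stat2), sensors of foreign nucleic acid, the Isg15 system, the Ifit and Oas families, interferon-induced GTPases, and further antiviral effectors.

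ER-Hoxb8 cells are myeloid progenitors from mouse bone marrow that an estrogen-receptor fusion of the homeobox protein Hoxb8 holds in a dividing state, and each clone descends from 1 cell. Each clone gave 1 RNA-seq library as a monocytic culture (here monocyte, n = 24) and 1 as a granulocyte-monocyte progenitor culture (here progenitor, n = 24), 48 libraries in all, paired by clone. All cultures carried ER-Hoxb8. Per the labels' protocols they were kept in RPMI with 10% fetal bovine serum, antibiotics and stem cell factor, and the sources used here do not explain the plus and minus signs that the titles use for the 2 states. The labels name no interferon, infection or other stimulus, no mouse strain, age or sex, and no animal of origin for a clone, so p-values measure the spread between clones.

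Type I interferons are secreted proteins that cells make after sensing viral or other nucleic acids. They bind the receptor chains Ifnar1 and Ifnar2, whose kinases Jak1 and Tyk2 phosphorylate Stat2. Stat2 joins Irf9 in a complex that binds the interferon-stimulated response element in the promoters of many genes, among them Irf7, which in turn raises interferon production. In monocytes and macrophages a low level of this program is kept up without infection by small amounts of interferon.

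Promoter windows are shown for genes that lead the results below, since the response element is the sequence through which the complex that holds Stat2 and Irf9 acts. Each line gives the stretch around the matches to the core GAAANNGAAA on either strand, which reads TTTCNNTTTC when it lies on the other strand, with the matches in capitals. The stretches come from RefSeq promoters of mouse build GRCm38.p6, on the gene's own strand, 5′ to 3′. Isg15 and Stat2 were added after their values had been seen.
Cxcl10, chr5:92349081-92349114, minus strand: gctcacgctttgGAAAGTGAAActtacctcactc
Ifit3, chr19:34583361-34583428, plus strand: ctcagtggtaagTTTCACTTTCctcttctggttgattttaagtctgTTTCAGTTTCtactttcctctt
Ifit3b, chr19:34607757-34607824, plus strand: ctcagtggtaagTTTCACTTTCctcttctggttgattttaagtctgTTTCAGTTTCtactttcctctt
Rsad2, chr12:26456551-26456584, minus strand: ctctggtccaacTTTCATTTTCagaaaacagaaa
Isg15, chr4:156200863-156200908, minus strand: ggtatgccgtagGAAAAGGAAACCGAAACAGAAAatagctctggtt
Stat2, chr10:128270264-128270297, plus strand: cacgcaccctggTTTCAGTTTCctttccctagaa
Isg15 carried 3 overlapping matches within the bases from -78 to -57 relative to its start, and the stretches of the neighbouring genes Ifit3 and Ifit3b were identical letter by letter. The longest run that the 2 whole windows share was 169 of 300 bases.

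Of the 52 genes 42 had a promoter in the table, a window from 250 bases before to 50 bases after the gene's start. The core occurred in 23 of these 42 genes (54.8%), against 1079 of all 27025 genes in the table (3.99%). The gamma-activated site TTCNNNGAA, known from the response to interferon gamma and its own reverse complement, occurred in 9 of 42 (21.4%), against 9.55% of all genes. Neither Irf7 nor Irf9 held the core in its window. A match is a run of letters and not a measured binding site. By position, 24 of the 52 genes lay in 9 groups in which neighbours were within 200 kb of each other, such as Ifit2, Ifit3, Ifit3b and Ifit1 on chromosome 19 and Oas2, Oas3, Oas1g and Oas1a on chromosome 5, so these genes share their surroundings as well as a pathway.

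Values are TPM, shares of a library's transcripts corrected for their length, which do not tell how deeply a library was sequenced. Genes with at least 1 TPM numbered 9436 to 10717 per monocyte library and 8240 to 11030 per progenitor library. The progenitor of clone 24 stood apart with the lowest number of detected genes and the lowest median level over all genes. That of clone 21 listed 23247 genes at 0, against 14856 to 20098 in the other progenitors, and it is where the lowest progenitor values of Irf7, Isg15, Zbp1 and Herc6 below, all 0, were found. Markers followed the labels only in part. All 7 tested progenitor markers, such as Cd34 and Kit, were lower in monocytes. Of 12 monocyte markers 9 were higher and 1 was lower, where 32.4% and 36.5% of all genes tested were. Genes listed as neutrophil markers (S100a8, S100a9, Ltf, Camp, Ngp, Retnlg, Cxcr2 and Mmp8) were also high in most libraries labelled monocytic. All 8 were higher in monocytes, with a median log2 fold change of 7.67, against 3.22 over the 12 monocyte markers. The summed level of these 8 genes was 344 to 184553 TPM in monocytes and 3.39 to 10723 TPM in progenitors. The single genes are not given apart, and their part in the differences between states was not tested. The clones fall into those numbered 15 to 26 (n = 11) and those numbered 1 to 13 (n = 13), a division seen in the data. The labels name no batch, and values are given within each set where the sets matter.

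The first comparison asked how the interferon-stimulated genes differ between the monocyte and the progenitor of the same clone. Most were higher in monocytes. Of 51 genes tested with limma, 45 were higher in monocytes and 1 was lower at an adjusted p under 0.05, where 32.4% of all 11072 genes tested were higher and 36.5% were lower. The median log2 fold change was 1.39 over the 51 genes and -0.06 over all genes. Ifi44 had a mean of under 1 TPM and was not tested. Of the 51 genes 22 reached that mean only through the monocytes, and a filter of this kind favours them. Among the 29 genes with a mean of at least 1 TPM in progenitors, 25 were higher in monocytes and 1 was lower, against 28.8% higher of all genes above the same level in progenitors. In bulk cultures a larger share of responding cells and more RNA per cell cannot be told apart.

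The 3 transcription factors were all higher in monocytes. Irf7 (chromosome 7, 141262706 to 141266481 of mm10) had a lowest value of 1.90, a median of 26.7 and a highest of 1948 TPM among the 24 monocytes, against 0, 0.812 and 3.49 TPM among the 24 progenitors. It was higher in the monocyte of 24 of 24 clones, although the lowest monocytes lay within the range of the progenitors. The log2 fold change was 3.70 (SE 0.35, adjusted p = 4.36e-10), the largest of the 51. Irf9, the DNA-binding subunit of the complex, had 2.42, 10.96 and 59.7 TPM (lowest, median, highest) in monocytes, against 0.482, 1.84 and 8.35 TPM in progenitors, and rose by 1.64 on the log2 scale (SE 0.20, adjusted p = 5.45e-08). Stat2, its partner, had 3.55, 9.15 and 198 TPM in monocytes, against 0.512, 1.23 and 12.04 TPM in progenitors. The ranges of Stat2 overlapped, since some progenitors reached the level of the median monocyte. Its log2 fold change was 1.63 (SE 0.23, adjusted p = 6.02e-07), with 21 of 24 clones higher in the monocyte.

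Sensors of nucleic acid were higher in 5 of 6 cases. Ifi204, a mouse sensor of the DNA-binding HIN-200 family, had 0.208, 9.75 and 332 TPM (lowest, median, highest) in monocytes, against 0.0158, 0.101 and 0.754 TPM in progenitors. Its log2 fold change was 3.12 (SE 0.32, adjusted p = 1.37e-09), with 24 of 24 clones higher in the monocyte and ranges that overlapped at the low end of the monocytes. Zbp1, a sensor of left-handed double-stranded RNA and DNA, had 0.700, 8.35 and 286 TPM in monocytes, against 0, 0.386 and 1.06 TPM in progenitors, and rose by 2.92 on the log2 scale (SE 0.31, adjusted p = 2.37e-09). The RNA helicases Dhx58 (LGP2), Ddx58 (RIG-I) and Ifih1 (MDA5) had log2 fold changes of 2.02, 1.55 and 1.22. Ifi203, another HIN-200 gene, did not pass, with a log2 fold change of 0.40 (adjusted p = 0.213). Of the 31-base words in the annotated transcripts of Ifi204, 46.0% also occur in other genes, so its TPM depends on how reads were divided among the family.

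Isg15, a ubiquitin-like protein that is conjugated to other proteins in the interferon response, had 1.21, 13.1 and 577 TPM (lowest, median, highest) in monocytes, against 0, 0.794 and 1.95 TPM in progenitors. Its log2 fold change was 3.14 (SE 0.31, adjusted p = 1.08e-09), and it was higher in the monocyte of 24 of 24 clones. The protease Usp18, which removes Isg15 and dampens receptor signalling, had a log2 fold change of 2.35. Herc6, the mouse ligase that attaches Isg15, had one of the smallest called rises, 0.65 (SE 0.21, adjusted p = 0.00768). It had 0.980, 3.75 and 98.0 TPM in monocytes and 0, 2.57 and 4.09 TPM in progenitors, so its medians lay close together. Of its 31-base words, 24.95% also occur in the gene model Gm45193.

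The Ifit genes, whose proteins bind foreign RNA, were higher in 4 of 4 cases and the Oas genes, whose proteins activate RNase L or resemble those that do, in 6 of 6. Ifit3 had 0, 5.52 and 669 TPM (lowest, median, highest) in monocytes, against 0, 0.0316 and 0.216 TPM in progenitors. Its log2 fold change was 2.77 (SE 0.39, adjusted p = 5.63e-07), with 22 of 24 clones higher in the monocyte, and no progenitor exceeded 0.216 TPM. Oasl2 led its family with a log2 fold change of 2.67, while Oasl1, with medians of 0.283 TPM in monocytes and 0.0841 TPM in progenitors, had the smallest rise of the family, 0.75 (SE 0.30, adjusted p = 0.0265). The call for Oasl1 held in 8 of the 12 settings that tested it, with an adjusted p of up to 0.226 by limma in the others, and without clone 15 it was not tested. Ifit3 shares 61.8% of its 31-base words with other genes, all with Ifit3b, and Oas1a shares 68.8%, nearly all with Oas1g. The levels of these 4 genes are therefore uncertain one by one.

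The GTPases were mixed. Of 8 genes 4 were higher in monocytes (Igtp, Gbp2, Irgm1 and Mx1), 1 was lower and 3 did not pass. Ifi47 (Irg-47), an immunity-related GTPase of vacuole defence, had 0.804, 6.48 and 172 TPM (lowest, median, highest) in monocytes, against 3.26, 14.5 and 22.3 TPM in progenitors. Progenitors were higher in 21 of 24 clones, and the log2 fold change of monocytes over progenitors was -0.77 (SE 0.25, adjusted p = 0.00815). Without clone 15, the one monocyte at 172 TPM, it was -1.003 (adjusted p = 4.54e-07). Mx1, the mouse orthologue of a virus-blocking GTPase, rose by 0.71 (SE 0.24, adjusted p = 0.0115) but reached no more than 2.83 TPM in any monocyte except that of clone 15. Irgm1 rose by 0.77, with medians of 9.65 TPM in monocytes and 6.56 TPM in progenitors. Gbp7, Gbp3 and Mx2 had log2 fold changes of -0.05, 0.04 and 0.23.

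The remaining effectors were mostly higher. All 8 RNA and nucleotide effectors passed, led by Samd9l (2.75), a restriction factor for poxviruses, and Cmpk2 (2.64), a mitochondrial nucleotide kinase that lies beside Rsad2 on chromosome 12. Of 3 tested genes of other function, the apoptosis factor Xaf1 (1.93), the nuclear body protein Sp100 (2.27) and Ifi35 (0.84) all passed. All 6 genes of the Parp, Trim and ubiquitin group passed, from Parp9 (0.79) to Trim30a (1.55). Of 4 genes for membrane or secreted proteins 3 were higher. Cxcl10, a chemokine for activated T cells, had 0.597, 8.73 and 918 TPM (lowest, median, highest) in monocytes, against 0, 0.120 and 1.99 TPM in progenitors, was higher in the monocyte of 24 of 24 clones and rose by 3.13 on the log2 scale (SE 0.36, adjusted p = 1.42e-08). Bst2 (tetherin), which holds budding virus at the cell surface, was already high in progenitors, with a median of 95.0 TPM in monocytes and 54.5 TPM in progenitors and a log2 fold change of 0.83. The call for Bst2 held in 12 of the 16 settings that tested it. By limma it was lost without clones 8, 13 and 15 (0.46, adjusted p = 0.125) and within each set of clones alone. It was also lost without mitochondrial, gene-model and pseudogene-like entries. Lgals3bp, a secreted glycoprotein, had medians of 17.6 TPM in monocytes and 18.4 TPM in progenitors and did not pass (-0.11, adjusted p = 0.769).

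**Figure D1:**
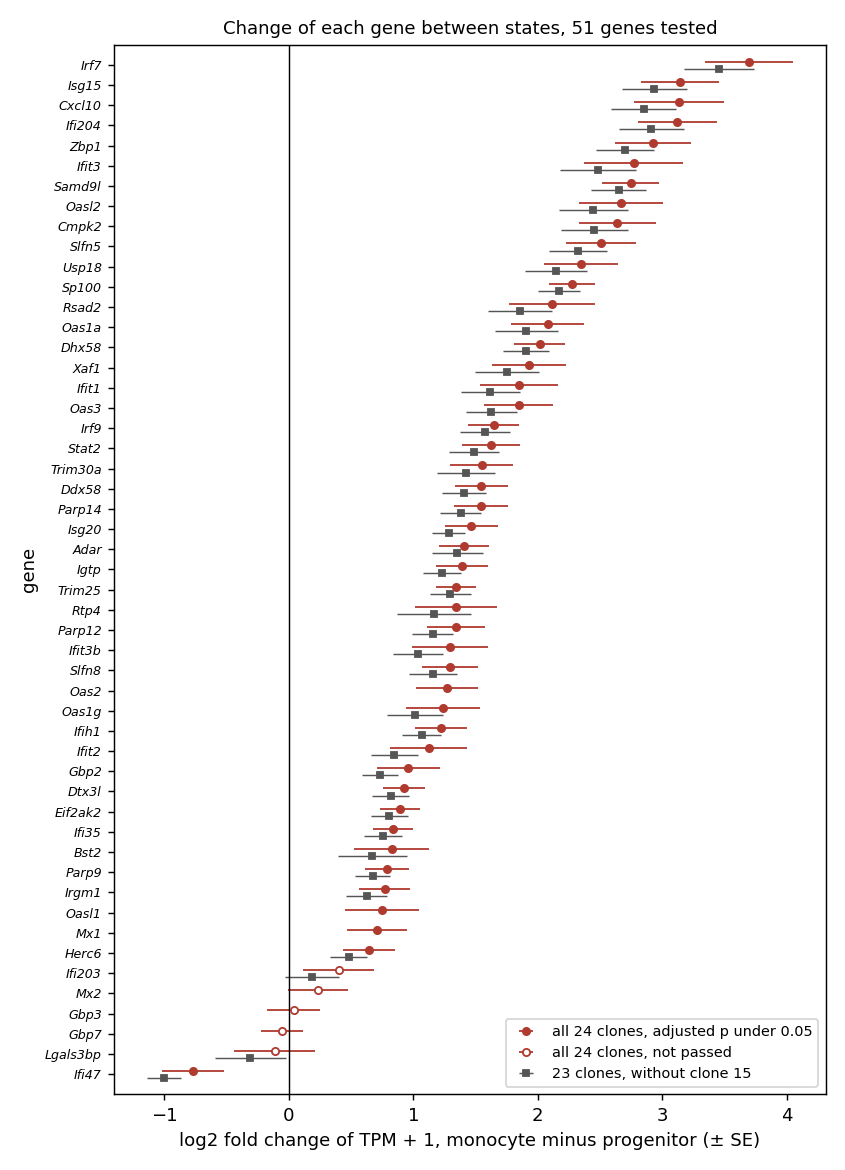
Log2 fold change of TPM + 1 (x axis, monocyte minus progenitor, bars ± SE) for the 51 genes tested, with all 24 clones (red circles, filled where the adjusted p was under 0.05) and without clone 15 (grey squares, 45 genes). The values run from 3.70 for Irf7 down to -0.77 for Ifi47, and the grey squares lie to the left of the red circles.

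Without clone 15, 45 of the 52 genes passed the filter, 42 were higher in monocytes and 1 was lower, beside 32.0% of all genes higher and 35.6% lower, and the median log2 fold change was 1.38 over these 45. Gbp7, Gbp3, Mx2, Mx1, Oasl1 and Oas2 dropped out because they reached a mean of 1 TPM only through that clone. Without clones 8, 13 and 15, a choice made after seeing the data, 38 of 42 genes were higher and 1 was lower (32.4% of all genes higher, 33.7% lower). With no filter 44 of 52 genes were higher and 1 was lower, against 17.9% and 23.1% of 26666. Within clones 15 to 26 alone 30 of 52 genes were higher and 0 lower (17.8% and 27.3% of all genes), and within clones 1 to 13 alone 41 of 45 were higher and 1 lower (38.9% and 33.2%). No gene of the list had every monocyte above every progenitor, which held for 1.14% of all genes tested.

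The level of the program in a library was summarised as the mean of log2(TPM + 1) over the 51 genes. It averaged 2.87 ± 1.199 in monocytes and 1.35 ± 0.28 in progenitors (SD, n = 24 each), with 1.33, 2.77 and 7.29 as the lowest, median and highest monocyte and 0.58, 1.38 and 1.84 for progenitors. The score was higher in the monocyte of 22 of 24 clones, by 1.52 ± 1.16. Clones 19 and 22 were the exceptions, with 1.33 and 1.38 in monocytes and 1.55 in both progenitors. Without clone 15 the monocyte score was 2.67 ± 0.76 (SD, n = 23) and the difference 1.34 ± 0.79, higher in 21 of 23 clones. The spread of the monocytes thus remained wider than that of the progenitors with clone 15 left out. The score is given as a description, with no test.

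**Figure D2:**
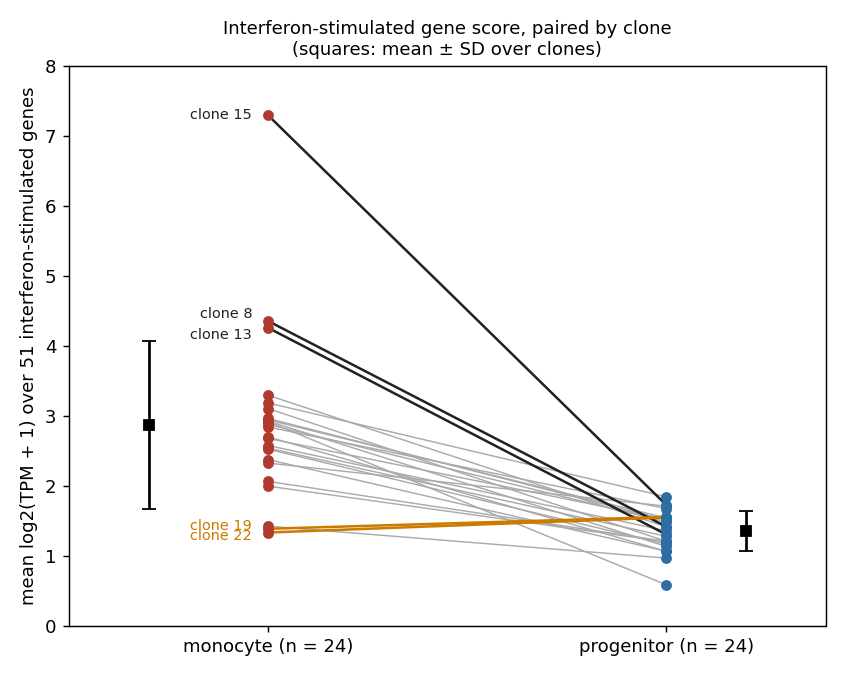
Mean log2(TPM + 1) over 51 interferon-stimulated genes (y axis) for the 24 monocytes (left) and the 24 progenitors (right), with lines joining libraries of a clone and squares with bars for the mean ± SD. Clone 15 stands at 7.29 as a monocyte, clones 8 and 13 at 4.35 and 4.26, and the lines of clones 19 and 22 slope the other way.

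One monocyte library formed the top of the range. In the monocyte of clone 15 all 52 genes had their highest value of the 24 monocytes, where 16.6% of 10763 genes did. In it 49 of 52 genes were at least 2-fold above the highest of the other 23 monocytes on the scale of TPM + 1, against 3.17% of all genes. The exceptions were Samd9l, Trim25 and Ifi35. Gbp3, Gbp7, Ifi44, Mx1 and Mx2 reached a mean of 1 TPM only through this library itself. Among the 47 genes that reached it in the other 23 monocytes, 47 were highest in clone 15 and 44 were at least 2-fold above the others, against 16.2% and 2.89% of 10709 genes. The median difference from the median of the other monocytes was 4.52 log2 units over the 52 genes and 0.25 over all genes. A total of 21 of the 50 genes with the largest excess in this library were on the list, which held 52 of the 5980 genes ranked, those with at least 10 TPM in this library. With a ranking of the 10709 genes above 1 TPM on average in the other monocytes, a filter chosen after seeing the data, 26 of the top 50 were on the list. With 1 library there is no replicate and no test.

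The genes that stood out most there were antiviral effectors and Irf7. Irf7 had 1948 TPM in the clone 15 monocyte, against 1.90 to 118 TPM in the other 23, with a median of 26.1 TPM. Cxcl10 had 918 TPM, against 0.597 to 74.5 TPM (median 7.47), and Ifit3 had 669 TPM, against 0 to 102 TPM (median 5.28). Oasl1 had 138 TPM, against 0 to 12.96 TPM (median 0.234), the largest difference of the list at 6.82 log2 units. All 4 were thus far above every other monocyte. Ifit2 (376 TPM, others up to 23.6 TPM), Ifit3b (152 TPM, others up to 17.8 TPM) and Rsad2, the antiviral enzyme viperin (361 TPM, others up to 53.6 TPM), were also above every other monocyte. Mx1 had 103 TPM, against at most 2.83 TPM in the others, a ratio of 36.4, and Ifi44, hardly detected otherwise, had 38.7 TPM, against at most 1.23 TPM. Stat2 had 198 TPM, against 3.55 to 19.2 TPM, and Irf9 had 59.7 TPM, against 2.42 to 21.02 TPM. Among genes with a promoter window, the median excess was 5.15 log2 units for the 23 with the response element core and 4.48 for the 19 without it. The ranges overlapped, at 3.03 to 6.76 with the core and 2.05 to 6.82 without it, and no test was made. The median log2 fold change between states was 1.39 with the core and 1.38 without it.

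**Figure D3:**
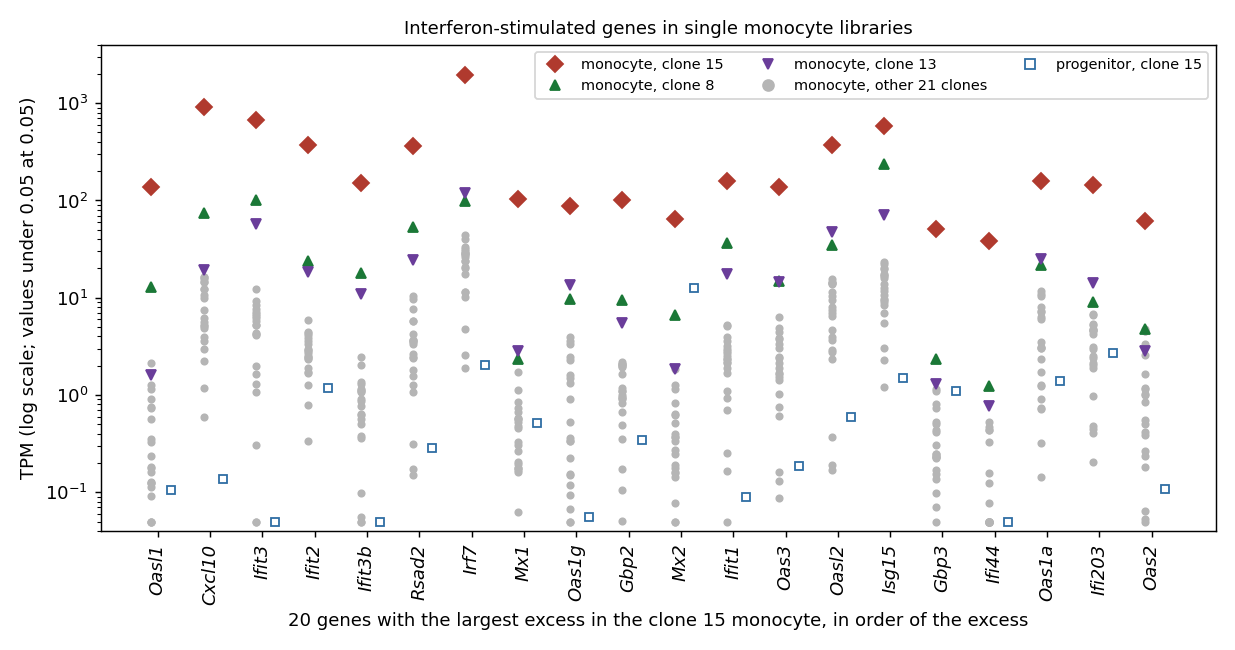
TPM (log axis) of the 20 genes with the largest excess in the clone 15 monocyte, in order of the excess. Red diamonds are the clone 15 monocyte, green and purple triangles those of clones 8 and 13, grey points the other 21 monocytes, and open blue squares the clone 15 progenitor, which lies at 12.7 TPM for Mx2 and at 2.02 TPM for Irf7.

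The progenitor of the same clone did not stand apart in this way, although its score was the second highest. The clone 15 progenitor had 2.02 TPM of Irf7, within the range of 0 to 3.49 TPM, and a score of 1.72, within 0.58 to 1.84. Of the 52 genes 4 had their highest progenitor value there (Dhx58, Oas1a, Mx2 and Trim25), where 5.47% of all genes did, and the median rank was 7 of 24. Mx2 had 12.7 TPM there, against a median of 0.0250 TPM over all 24.

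The monocytes of clones 8 and 13 came next. Among the 23 monocytes without clone 15, clone 8 held the highest value of 23 genes and clone 13 that of 20 genes, where 1.77% of all genes were highest in clone 8 and 1.83% in clone 13. Both were among the top 3 of all 24 monocytes for 34 of 52 genes. Their scores were 4.35 and 4.26, against at most 3.29 in the other 21. They did not carry the same genes equally. Clone 8 exceeded clone 13 for Oasl1 (12.96 and 1.61 TPM), Cxcl10 (74.5 and 19.4 TPM) and Isg15 (235 and 71.4 TPM), and lay under it for Samd9l (6.59 and 18.05 TPM) and Ifih1 (3.46 and 10.1 TPM). Samd9l in clone 8 ranked 18 of 24. The median level over all genes was lowest in the clone 8 monocyte, at 2.53 on the log2 scale, and the part of this in the values above was not tested.

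**Figure D4:**
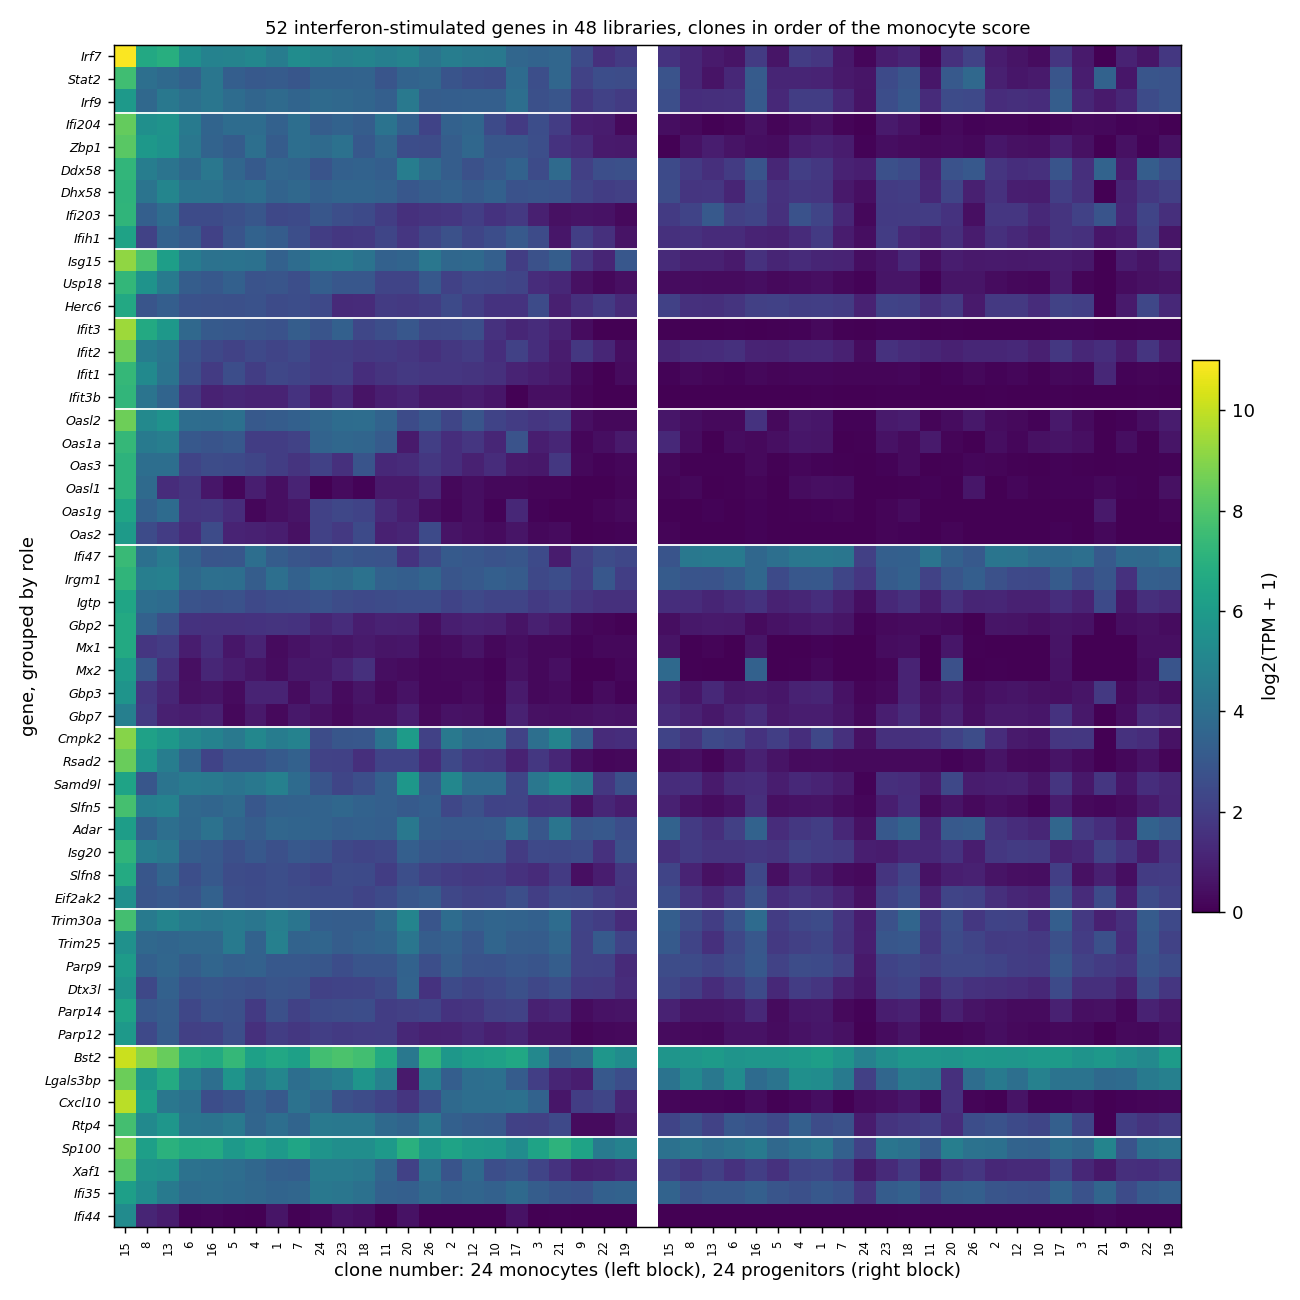
Log2(TPM + 1) of the 52 genes (rows, grouped by role) in the 24 monocytes (left block) and 24 progenitors (right block), each ordered by the monocyte score of the clone. The column of monocyte clone 15 is the brightest monocyte in all 52 rows, those of clones 8 and 13 are among the 3 brightest in 40 and 42 rows, and Ifi47 is brighter in the progenitor of 21 of the 24 clones.

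Across clones the genes moved together in monocytes. The median Pearson r between pairs of the list over the 24 monocytes was 0.83, where it was 0.18 over all genes. Without clone 15 it was 0.68 over 23 monocytes (47 genes above the filter), and without clones 8, 13 and 15 it was 0.61. Among progenitors it was 0.44 over 29 genes, close to the 0.39 of all genes. Over the 23 monocytes Ifit3, Igtp, Usp18, Oasl2 and Irf7 followed the mean of the other members most closely (r of 0.97, 0.97, 0.97, 0.96 and 0.96). Samd9l (0.11), Sp100 (0.43) and Adar (0.46) followed it least. Among 7363 genes with a mean of at least 5 TPM in monocytes, those outside the list most like the score were Mnda (r = 0.95), Epsti1 (0.94), Ifi209 (0.91), Phf11b (0.90), Trim30d (0.89), Ifi206 (0.89), H2-T22 (0.87), Ms4a4c (0.87), Trafd1 (0.86) and Sdc3 (0.85). These points share library totals and, in places, sequence, and no p is given.

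The genes upstream of the program were then examined. Of 21 interferon genes none reached the filter, and 12 were listed at 0 in all 48 libraries. Ifnb1, interferon beta, had 4.10 TPM in the clone 15 monocyte, 0.873 TPM in the clone 8 monocyte and 0.351 TPM in the clone 13 monocyte, and was listed at 0 in 35 of 48 libraries. The other 20 were listed at 0 in the clone 15 monocyte, Ifng among them. Ifnb1 was thus highest in the same library as the 52 genes, at a level near the bottom of the measured range. Receptor chains were present in both states. Ifnar1 had 42.3 TPM in the clone 15 monocyte and 3.86 to 30.5 TPM in the other monocytes, and all 5 tested receptor genes were higher in monocytes than in progenitors, with log2 fold changes of 0.46 (Ifnar2) to 2.52 (Ifngr2). Of all 11072 genes tested 32.4% were higher.

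Of 10 signalling genes 8 were higher in monocytes and 0 were lower, with a median log2 fold change of 1.18, where 32.4% of all genes tested were higher and 36.5% lower. Irf1 had 122 TPM in the clone 15 monocyte, against at most 39.4 TPM in the other monocytes, while Irf3, which is present without interferon, had 43.9 TPM and ranked 8 of 24. Of 11 tested sensing and adaptor genes 7 were higher in monocytes, led by the endosomal RNA receptor Tlr7 (4.14), and Mavs, Tmem173 (STING), Mb21d1 (cGAS) and Traf6 did not pass. Of 7 tested feedback and Isg15 partner genes 5 were higher and 1, the phosphatase Ptpn2, was lower. Uba7 and Ube2l6, the enzymes that activate and carry Isg15, had 303 and 288 TPM in the clone 15 monocyte, against at most 76.5 and 65.8 TPM in the others.

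Interferon-responsive genes outside the 52 were also mostly highest in the clone 15 monocyte, and most were higher in monocytes than in progenitors. Of 65 such genes tested 44 were higher in monocytes and 11 were lower, where 32.4% and 36.5% of all genes tested were. The median log2 fold change of the 65 was 1.01. Of the 65 genes 57 were highest in the clone 15 monocyte, against 16.6% of 10763 genes filtered on their mean in monocytes. The 65 were filtered on all 48 libraries, and how many passed only through the clone 15 monocyte was not counted. Among the 10 genes outside the list with the largest excess there were the chemokine Ccl5 (270 TPM, others at most 8.30 TPM), the GTPases Iigp1 (28.9 TPM, others at most 0.452 TPM), Gbp9 (36.7 TPM, others at most 1.75 TPM) and Gbp5 (20.6 TPM, others at most 0.672 TPM), Ifit1bl1, Ifi213 and Trim30c. The other 3 were the gene models Gm44782, Gm42533 and AC134254.1, listed at 0 in each of the other monocytes.

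Markers in the clone 15 monocyte were read against the other 23. Monocyte markers summed to 16086 TPM over 12 genes, within the range of 2325 to 21186 TPM, and neutrophil genes to 33542 TPM, within 344 to 184553 TPM. Of 9 markers of plasmacytoid dendritic cells, a known source of interferon, 5 were exceeded in no other monocyte. Ties count here, and 16.6% of 10763 genes were highest in this library. A mean of at least 1 TPM over all libraries was reached by 4 of the 9, and 2 of these 4 were among the 5. Between states 1 of these 4 was higher in monocytes and 3 were lower, where 32.4% and 36.5% of all genes tested were. Siglech was 1 of 2 markers listed at 0 in the clone 15 monocyte. Bst2 (itself on the list) made up 1119 of 1128 TPM, against a sum of 14.8 to 554 TPM in the others. T, NK and B cell markers summed to 0.147 TPM, under the 0.734 to 112 TPM of the others, and macrophage markers to 3715 TPM, above the 53.8 to 3378 TPM of the others. The 4 replication and cycle genes summed to 30.4 TPM, under the range of 42.7 to 309 TPM. The part of the higher macrophage and the lower cycle genes in the interferon-stimulated genes was not tested.

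The next comparison asked whether the change between states differed between clones 15 to 26 and clones 1 to 13. With all clones 0 of the 51 genes passed the limma test of the difference, where 1.66% of all genes passed with a higher and 9.79% with a lower log2 change in clones 15 to 26, and 4 of the 51 had an unadjusted p under 0.05. Without clone 15, 8 of 45 genes passed, all with the smaller rise in clones 15 to 26, where 9.44% of all genes passed in that direction and 1.56% in the other. Without clones 8, 13 and 15, 6 of 42 passed in that direction (16.5% of all genes, and 1.79% in the other). For Stat2 the log2 fold change was 0.65 (SE 0.22) in clones 15 to 26 without clone 15 and 2.13 (SE 0.29) in clones 1 to 13. The difference without clone 15 was -1.47 (SE 0.30, adjusted p = 0.00299), and with all clones it was -1.09 (SE 0.42, adjusted p = 0.0883). For Irf7 the difference without clone 15 was -1.23 (adjusted p = 0.122). Most calls of this comparison thus rest on leaving out clone 15, the one clone of its set with a monocyte far above the rest. Over all genes the direction of the difference also depends on scaling. With quantile normalisation of all clones, 1218 genes had a higher and 786 a lower change in clones 15 to 26, and 0 of the 51 passed.

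The levels in each state were then compared between the sets. Among monocytes 0 of 52 genes passed between the sets by limma, where 3.80% of all genes were higher and 3.03% lower in clones 15 to 26, and 1 gene of the list had an unadjusted p under 0.05. Without clone 15, 1 of 47 was lower (3.65% of all genes higher, 3.96% lower). Among progenitors 29 genes of the list passed the filter, of which 10 were higher and 4 lower in clones 15 to 26, against 28.1% and 11.4% of all 10720 genes. Irf7, Mx2, Samd9l, Slfn8 and Stat2 reached the filter only through clones 15 to 26, which favours a higher value there. Of the 24 genes with a mean of at least 1 TPM in both sets, a filter chosen after seeing the data, 7 were higher and 4 lower, against 25.5% and 11.5% of all such genes. Without clones 19, 21, 24 and 26 it was 18 higher and 3 lower, against 57.4% and 11.9%. The share of mitochondrial transcripts was 8.44% to 16.7% in progenitors of clones 15 to 26 and 3.44% to 8.37% in those of clones 1 to 13, and its part in these differences was not tested. The median difference was 0.35 over the 29 genes and 0.22 over all genes.

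Stat2 stood out in size. It had 0.523, 6.55 and 12.04 TPM (lowest, median, highest) in progenitors of clones 15 to 26, against 0.512, 0.869 and 1.36 TPM in those of clones 1 to 13. The lowest value of clones 15 to 26 was clone 24, and the other 10 lay between 4.47 and 12.04 TPM, above all 13 progenitors of clones 1 to 13. The log2 difference was 1.89 (SE 0.23, adjusted p = 1e-06), for a gene that was tested only because of its level in clones 15 to 26, since its mean in clones 1 to 13 was 0.895 TPM. Adar, an editor of double-stranded RNA, had 0.408, 8.17 and 11.4 TPM in clones 15 to 26, against 0.754, 1.81 and 3.29 TPM in clones 1 to 13, a difference of 1.36 (SE 0.29, adjusted p = 0.000616). Clones 21 and 24 were the low values of clones 15 to 26, at 1.73 and 0.408 TPM. Ddx58 (1.18), Slfn8 (1.01), Irf9 (0.93) and the RNA-activated kinase Eif2ak2 (0.90) were also higher in clones 15 to 26. Irf7 did not pass, with medians of 1.86 TPM in clones 15 to 26 and 0.736 TPM in clones 1 to 13 (0.35, adjusted p = 0.259).

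Mx2, which GENCODE M21 annotates as a polymorphic pseudogene, was split within clones 15 to 26. Its progenitors had 12.7 TPM in clone 15, 9.54 TPM in clone 16, 6.34 TPM in clone 19, 5.43 TPM in clone 20 and 1.12 TPM in clone 18, and at most 0.431 TPM in the other 6. In clones 1 to 13 it reached at most 0.168 TPM. Clones 15 to 26 were higher by 1.32 on the log2 scale (SE 0.39, adjusted p = 0.00998), which rests on those 5 clones, as does its place among the genes tested. Ifi47 (-0.91), Lgals3bp (-0.90), Rtp4 (-0.68) and Isg20 (-0.40) were lower in progenitors of clones 15 to 26. Quantile normalisation, which shifted the median difference of all genes to -0.03, gave 8 genes of the list higher and 10 lower (23.9% and 26.4% of all genes), so the direction of the smaller differences depends on scaling.

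**Figure D5:**
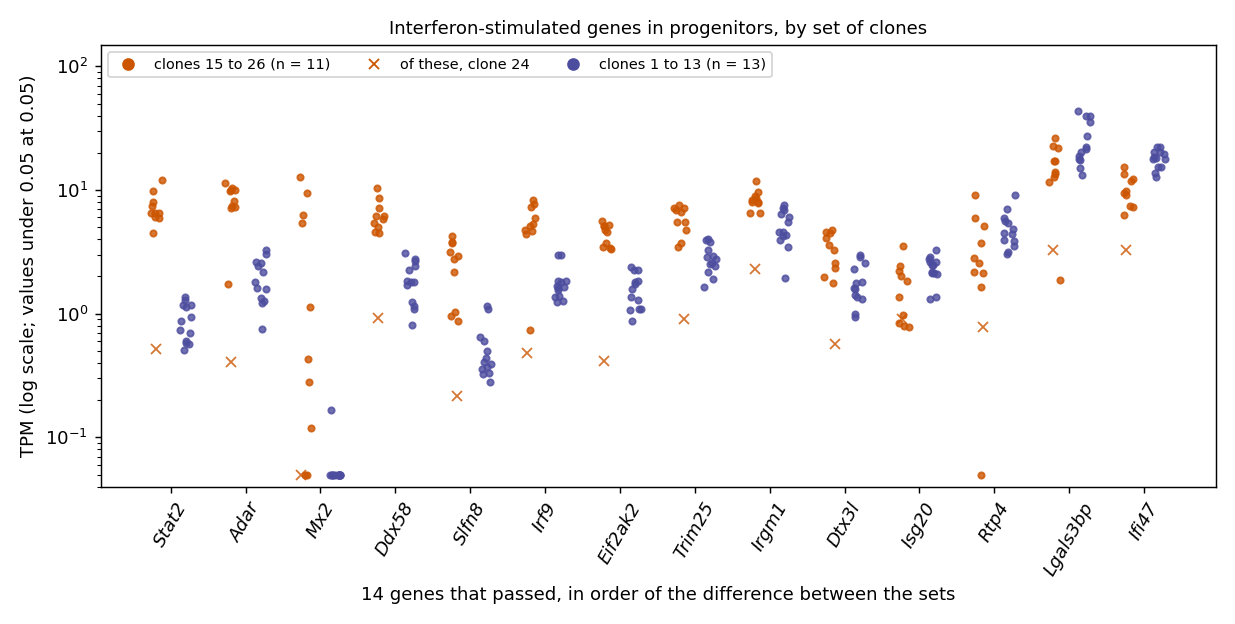
TPM (log axis) in progenitors of clones 15 to 26 (orange, left of each pair, clone 24 as a cross) and of clones 1 to 13 (blue, right) for the 14 genes that passed between the sets, in order of the difference. For Stat2 10 of the 11 orange points lie above all 13 blue points, and Mx2 is spread from 0 to 12.7 TPM among the orange points.

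The last comparison asked whether a clone that is high in 1 state is high in the other. No gene of the 29 with enough level and spread in both states passed the one-sided permutation test of Pearson r over 24 clones after Benjamini-Hochberg adjustment over 9570 genes, where 3.61% of all genes did, and 4 had an unadjusted p under 0.05. The median r was 0.26 over the 29 genes and 0.13 over all genes. Below, the 2 farthest clones are those whose progenitor value lies farthest from the progenitor median, whatever their monocyte value. Lgals3bp had r = 0.368 (permutation p = 0.0396, adjusted p = 0.241) and rho = 0.361 (permutation p = 0.0420), with r of 0.332 within clones 15 to 26, 0.449 within clones 1 to 13 and 0.249 without the 2 clones farthest from the median. Ifi47 had r = 0.087 (permutation p = 0.364, adjusted p = 0.617) and rho = 0.498 (permutation p = 0.00742), with r of -0.203 within clones 15 to 26, 0.797 within clones 1 to 13 and 0.727 without the 2 farthest clones. Clone 15 alone moved the r of Ifi47, which was 0.584 without that clone (permutation test, adjusted p = 0.0695). These 2 genes were chosen after their values had been seen. Irf7 had r = 0.095 (permutation p = 0.332, adjusted p = 0.591) and rho = 0.010 (permutation p = 0.482), with r of 0.122 without the 2 farthest clones. That rule kept clone 15, and without clone 15 the r of Irf7 was -0.064. Stat2 had r = 0.381 (permutation p = 0.0292, adjusted p = 0.208) and rho = 0.446 (permutation p = 0.0152), with r of 0.048 within clones 15 to 26, 0.466 within clones 1 to 13 and 0.402 without the 2 farthest clones. Mx2 fell into separate clusters of clones and is given no pooled value, with r of 0.540 within clones 15 to 26 and 0.083 within clones 1 to 13. After adjustment 0 genes of the list passed within either set. Within clones 1 to 13, 8 of 19 genes of the list had an unadjusted permutation p under 0.05 and the median r was 0.43, against 302 of 6256 genes and a median of -0.07 over all genes, of which 0 passed after adjustment. Within clones 15 to 26 it was 1 of 30, with a median r of 0.22, against 861 of 9632 and 0.14 over all genes.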

How the data were processed

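RNA-seq libraries of 24 clones in 2 states were grouped by the source named in the labels and paired by the clone number in the titles. The authors deposited 1 table of TPM per gene symbol. Salmon and the build mm10 are named in the submitters' processing notes, and the sources used here do not give the annotation release. Salmon divides reads among similar transcripts, and TPM are relative to the library total, so a class of transcripts that grows lowers all others. TPM give no depth or counting error, and a value listed at 0 may be an estimate that failed. Left out were 26 rows named as calendar dates. The highest r between any 2 libraries was 0.992.

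The members, gene lists, sets of clones and tests were chosen with earlier results of these data known. Tests used limma 3.58.1 (R 4.3.3), two-sided, after a log2 transform of TPM + 1, with a mean-variance trend, genes with a mean of at least 1 TPM over the libraries in a fit, Benjamini-Hochberg adjustment over all genes tested and a threshold of 0.05. Clone was a block in fits over both states, since the series design text pairs the cultures by clone. Both libraries of a clone deviated from their group means together, with r above 0.1, in 18 of 24 clones. These means were taken over both sets of clones, and libraries of different clones were not compared. The value therefore cannot tell pairing by clone from the division between the sets. Fold changes on this scale understate the change of low genes. Correlations between states used 100000 permutations and only genes whose SD over clones reached 0.25 in each state. Fits were also run on simulated data with known changes, and those results are not given here.

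Named by rule were Irf7, Irf9 and Stat2, the 6 largest rises and the 6 largest falls or smallest rises between states, the 8 largest differences of the clone 15 monocyte, up to 6 genes past the test between sets or between states, the 10 other genes most like the score and the 10 with the largest excess in the clone 15 monocyte. Other steps used numpy 2.4.6, scipy 1.17.1, pandas 2.3.3 and matplotlib 3.10.9 under Python 3.11.15. Gene positions are from GENCODE M21 on mm10. Alternatives were other pseudocounts, filters, scalings, models and sets of clones.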

Additional observations from a re-analysis of the deposited data

Results flagged for a closer look

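With clone 15 left out, 8 of 45 genes rose less between states in clones 15 to 26 than in clones 1 to 13, by limma's test of that difference. Of all genes tested 9.44% passed in that direction. The main direction over all genes turned with quantile normalisation of all clones, a setting that was not combined with leaving out clone 15. The difference of the log2 fold changes, clones 15 to 26 minus clones 1 to 13, was -1.47 for Stat2 and -1.47 for Cxcl10, -1.40 for Ifi204, -1.27 for Samd9l, -1.04 for Slfn8, -1.02 for Ddx58, -0.90 for Ifih1 and -0.83 for Eif2ak2, with adjusted p between 0.00299 and 0.0486. With all clones the same 8 genes had differences from -1.09 (Stat2) to -0.51 (Ifih1), and the lowest adjusted p was 0.0883. Without clones 8, 13 and 15, 6 of 42 genes passed, where 16.5% of all genes passed in that direction. Ifi204 and Slfn8 did not pass limma's test there (adjusted p = 0.0790 and 0.0655).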

How the results depend on the processing

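Over 15 alternatives the count of genes higher in monocytes ran from 30 of 52 in clones 15 to 26 alone to 46 of 51 with a pseudocount of 0.1. The reported count was 45 of 51, and 30 lies at the edge of a 1.5-fold limit. In clones 15 to 26 alone 17.8% of all genes were higher, against 32.4% with all clones. The settings tested from 34 to 52 genes of the list, so the counts are not directly comparable. Of the 52 genes 30 passed in every setting that tested them. The count was 45 with no replicate block, where limma called 7436 genes in all in place of 7623. Ifi47 was the gene called lower, except in clones 15 to 26 alone, where 0 were. All genes called fell to 5053 in clones 15 to 26 alone. Signs turned for genes that had not passed: Gbp3 with a pseudocount of 0.1 (-0.26), without mitochondrial and similar entries (-0.13), with quantile normalisation (-0.022) and with array weights (-0.14), Gbp7 with a pseudocount of 5 (0.035) and in clones 15 to 26 alone (0.013), Lgals3bp in the same 2 settings (0.029 and 0.17), and Mx2 in clones 15 to 26 alone (-0.24). The difference of the change between the sets called 0 genes of the list with all clones, 8 without clone 15, 6 without clones 8, 13 and 15, and 1 each with a pseudocount of 0.1, without clones 19, 21, 24 and 26, and without mitochondrial and similar entries. All genes called in it, 1268 with all clones, were 2004 with quantile normalisation, 2935 without clones 19, 21, 24 and 26 and 2016 without clones 8, 13 and 15. Of the 2004, 1218 had a higher and 786 a lower change in clones 15 to 26, against 184 and 1084 of the 1268. Between the sets, 1 gene of the list was called in monocytes without clone 15, against 0 with all clones, and all genes called there were 1155 without mitochondrial and similar entries and 1795 with quantile normalisation, against 735. Among progenitors 11 to 21 genes of the list were called, against 14, and 7384 of all genes without clones 19, 21, 24 and 26, against 4234. Correlations between states called 0 genes of the list in each alternative, and of all genes 27 with each set centred, 0 in clones 1 to 13, 18 in clones 15 to 26 and 834 without mitochondrial and similar entries, against 345. The clone 15 monocyte was highest for each gene tested under each of 5 alternatives. Pseudocounts keep the order of libraries and filters only remove genes, so most of these could not change that result. Only leaving out mitochondrial and similar entries could, and there 52 of 52 genes were highest in clone 15. In that setting 48 were at least 2-fold above the other monocytes, against 49 in the reported one. The score difference was 1.34 without clone 15, 1.08 as z-scores and 1.55 without mitochondrial and similar entries. The causes of these changes were not tested. Limits are that depth is unknown, that a library is the only one of its clone and state, and that the sets of clones cannot be told apart from any batch.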

Other observations

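Some interferon-responsive GTPases were split among progenitors of clones 15 to 26, as Mx2 was. Genes of the chromosome 5 guanylate-binding protein cluster, chosen here after their values were seen, were low in the progenitors with Mx2. In progenitors of clones 15, 16, 18, 19 and 20 Gbp4 had 0.0171 to 0.0456 TPM and Gbp6 0.0200 to 0.0978 TPM, with Mx2 at 1.12 to 12.7 TPM. In progenitors of clones 17, 22, 23 and 26 Gbp4 had 8.91 to 21.1 TPM and Gbp6 13.8 to 25.4 TPM, with Mx2 at most 0.431 TPM. Clones 21 and 24 were low for Gbp4 (at most 0.523 TPM) and Gbp6 (at most 0.660 TPM), with Mx2 listed at 0. In clones 1 to 13 Gbp4 had 2.68 to 14.99 TPM and Gbp6 2.44 to 21.2 TPM, with Mx2 at most 0.168 TPM. Gbp8 and Gbp9 were also at most 0.419 and 0.1004 TPM in the 5 clones with Mx2, against 11.6 to 17.05 TPM and 5.98 to 18.3 TPM in clones 17, 22, 23 and 26. These are values of single libraries and no test was made.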
